A study of Caenorhabditis elegans with 2 samples.

Results

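The regions described here are the 223 regions of the pooled list on the X chromosome of Caenorhabditis elegans whose summit lay inside a protein-coding gene and away from short RNA genes. A region counted when its summit fell between the start and the end of a RefSeq protein-coding gene (WBcel235, the same assembly as build ce11). It also had to lie more than 250 bp from every tRNA, snRNA, snoRNA, rRNA or miRNA gene. Signal values played no part in the choice among pooled regions. The nuclear regions of the pooled list all had signal values of at least 39.049. These 223 were 18.0% of the 1242 pooled regions and 47.1% of the 473 on X. The other X regions were 175 outside protein-coding genes and 75 beside a short RNA gene, and 424 autosomal regions met the same rule.

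ChIP-seq, the sequencing of DNA from precipitated chromatin, was done on whole young adult hermaphrodites of strain OP543, collected 64 hours after the animals had been synchronized by bleaching and starvation at the first larval stage. All animals carried a stably expressed transgene for SDZ-38 tagged at its C-terminus with GFP-FLAG, and sonicated chromatin was precipitated with an anti-GFP antibody according to the description, while the antibody field reads sdz-38. The labels give 1 group with 2 biological replicates, so no condition could be compared with another and p-values were not computed. No library without the tagged protein was analysed here, so a region marks ChIP signal and is not shown to mark SDZ-38. The whole organism was used, so a region cannot be assigned to a tissue, and the promoter that drives the transgene is not given in the labels.

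Hermaphrodite worms carry a pair of X chromosomes, whose genes are turned down in body cells by the dosage compensation complex, a condensin-based machine that loads at recruitment sites and spreads along X. The letters GCGCAGG belong to the DNA motif of those sites. In ChIP-seq with a transcription factor, summits usually gather at promoters and enhancers, and introns of worm genes often hold enhancers. SDZ-38, whose gene is named for early embryonic expression that depends on the transcription factor SKN-1, is described by RefSeq as a protein with a C2H2-type zinc finger domain.

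Sequences of members at which searched words stood within 50 bp of the summit are shown first. Each runs from 50 bp before to 50 bp after the summit in build ce11, read 5′ to 3′ on the strand of the gene. Capitals mark the word on either strand. In the first 3 it is GCGCAGG, whose reverse complement is CCTGCGC, in the next 2 it is CACGTG (the E box), and in the last it is GCGCCA. These are all 3 members with GCGCAGG and the strongest members with each of the other words.
mom-1 (intron, chrX:6296529-6296629, plus strand): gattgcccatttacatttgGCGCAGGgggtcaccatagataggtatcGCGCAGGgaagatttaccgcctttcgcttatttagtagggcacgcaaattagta
T24D5.1 (coding exon, chrX:12576866-12576966, plus strand): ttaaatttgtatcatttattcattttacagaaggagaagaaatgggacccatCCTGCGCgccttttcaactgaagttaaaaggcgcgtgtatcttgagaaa
F38E9.1 (intron, chrX:16472076-16472176, plus strand): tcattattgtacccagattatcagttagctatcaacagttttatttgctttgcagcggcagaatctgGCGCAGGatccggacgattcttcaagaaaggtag
ZK470.2 (intron, chrX:4142184-4142284, plus strand): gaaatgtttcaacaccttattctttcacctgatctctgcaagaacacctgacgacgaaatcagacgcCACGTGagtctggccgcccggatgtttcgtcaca
C30G4.4 (intron, chrX:17063705-17063805, minus strand): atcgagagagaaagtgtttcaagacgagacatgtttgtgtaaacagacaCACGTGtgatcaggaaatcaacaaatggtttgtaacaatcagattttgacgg
cgt-2 (intron, chrX:17701093-17701193, plus strand): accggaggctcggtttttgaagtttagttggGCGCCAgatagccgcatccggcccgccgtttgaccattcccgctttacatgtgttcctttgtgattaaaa

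The next 3 show how summits stood relative to coding sequence, with 2 of the 106 summits on coding exons and 1 of the 98 in introns. They are the 81 bases around the summit, and capitals mark bases of a coding exon in at least 1 transcript.
acdh-10 (chrX:17214264-17214344, minus strand): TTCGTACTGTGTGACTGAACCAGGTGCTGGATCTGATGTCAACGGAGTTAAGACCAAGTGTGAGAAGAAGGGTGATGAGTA
sid-3 (chrX:17189516-17189596, plus strand): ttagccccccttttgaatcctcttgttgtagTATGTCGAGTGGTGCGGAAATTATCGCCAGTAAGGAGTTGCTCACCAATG
lin-15B (chrX:15729883-15729963, plus strand): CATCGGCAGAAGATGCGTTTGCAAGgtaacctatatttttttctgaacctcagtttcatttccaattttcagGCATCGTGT
The acdh-10 window was coding throughout. The sid-3 window began in an intron and ended in the exon, and the lin-15B summit lay in a short intron between coding stretches.

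The 223 summits lay in 187 distinct genes, 6.85% of the 2730 protein-coding genes of X. A single region was found in 157 of these genes, 20 genes held 2 regions and 10 held 3 or more. All members were 456 bp wide, and 14 of them overlapped another member in 7 pairs, so that counted once they were 216. In 6 cases the summit lay in more than 1 protein-coding gene. Host genes were long, with a median of 5152 bp against 2507.5 bp for all protein-coding genes of X. With X genes cut by length into 4 groups of equal number, 112 of the 683 longest (16.4%) held a member, against 1.90% of the shortest. Regions at random positions would also fall more often in long genes.

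Most members were found in both replicates, as were pooled regions in general. Regions of both replicates overlapped 201 of the 223 members (90.1%, exact 95% interval 85.4% to 93.7%), against 88.5% of all 1221 nuclear pooled regions. Replicate 1 alone overlapped 14 members and replicate 2 alone 8, against 99 and 41 of the 1221 nuclear pooled regions in the same order. Shares near the background say nothing particular to X genes. The share with both replicates was 85.7% for X regions outside genes and 86.1% for autosomal regions inside genes. Summits of the replicate regions stood close to the pooled summit, at a median of 26 bp in replicate 1 and 25 bp in replicate 2. Pooled regions already draw on the data of each replicate, so this overlap and closeness are partly built in. They are no independent support for a member.

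The share of members with high ranks in both replicates was below that of all pooled regions, without a test of the difference. Regions ranked 1000 or better in both replicates overlapped 25 members (11.2%, exact 95% interval 7.39% to 16.1%), against 16.7% of all nuclear pooled regions. The 75 X regions beside short RNA genes had 41.3%, X regions outside genes 18.3% and autosomal regions inside genes 8.02%. With each replicate taken alone, 89 members reached this rank in replicate 1 and 96 in replicate 2, and 160 in at least 1 of them, so most members that ranked high did so in 1 replicate. No member ranked 100 or better in both, and 73 ranked beyond 5000 in at least 1. Counts other than rank 1000 in both were not made over all nuclear pooled regions, so they show nothing particular to X genes. Median ranks of the overlapping regions were 1563 in replicate 1 and 1205 in replicate 2 for members. For all nuclear pooled regions they were 1167.5 in replicate 1 and 1121.5 in replicate 2. The lists held 17743 regions in replicate 1 and 12648 in replicate 2.

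**Figure D1:**
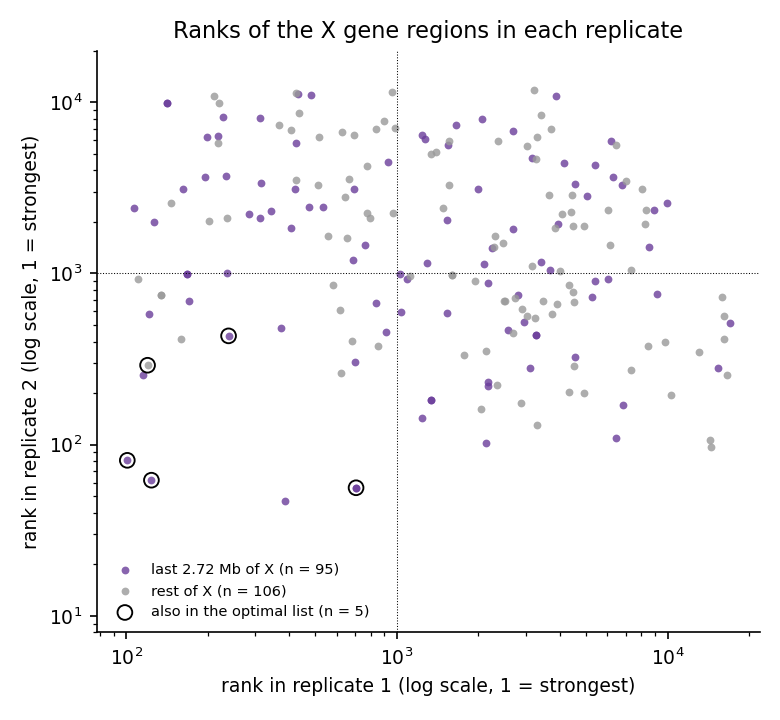
Rank of each member in replicate 1 (x axis) and replicate 2 (y axis) on log scales, for the 201 members with a region of both, with rank 1 the strongest. Purple points lie in the last 2.72 Mb of X (n = 95), grey points in the rest (n = 106), rings mark the 5 members of the optimal list, and dotted lines stand at rank 1000, with 25 members inside both.

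The authors' optimal list, made by the irreproducible discovery rate (IDR) procedure from how well ranks repeat, held 5 of the members. That was 2.24% (exact 95% interval 0.732% to 5.15%), against 6.63% of all nuclear pooled regions. It was 8.0% for X regions outside genes, 15 of 75 for X regions beside short RNA genes and 2.12% for autosomal regions inside genes. Members and autosomal gene regions thus had shares within each other's intervals. The lowest signal value of the optimal list was 62.6, and 218 of the 223 members lay below it. The list held 102 regions, and the nlp-67 member with this lowest value ranked 102 in the pooled list. Being in the optimal list thus followed a cut in pooled signal value, and it is no support separate from that value.

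The pooled signal value is the authors' score for a region, on a scale that is not stated. Over the members it ran from 39.1 to 73.7 with a median of 43.96. It was 50 or more in 38 members and 45 or less in 131. Medians were 43.4 for X regions outside genes, 52.3 for X regions beside short RNA genes and 42.8 for autosomal regions inside genes. The strongest region of X outside genes reached 117, well above any member. In the replicates' own lists the members had medians of 23.7 in replicate 1 and 21.6 in replicate 2.

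Among the 201 members with both values, replicate signals ran slightly against each other (Spearman's rho −0.222 across regions). These points share their pooled list, which admits a region that is strong in either replicate, so rho describes the selection as well.

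The strongest member lay in acdh-10, which RefSeq describes as a mitochondrial medium-chain acyl-CoA dehydrogenase, an enzyme of fatty acid oxidation. Its region at chrX:17214076-17214531 had a pooled signal value of 73.7, 599 bp inside the gene. The region ranked 124 in replicate 1 (signal value 35.7) and 62 in replicate 2 (37.0). It stood high in both replicates. The neighbouring acdh-7, of the same enzyme family, held 2 weaker members with pooled signal values of 44.5 and 39.9.

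cgt-2 encodes a ceramide glucosyltransferase, which makes glucosylceramide, and held 2 members. The first, in an intron at chrX:17700915-17701370, had a pooled signal value of 72.7, with 37.3 in replicate 1 and 34.3 in replicate 2, where it ranked 81. It had the best ranking of all members when the worse of both ranks was taken. The second, in a coding exon, had a pooled signal value of 54.2, rank 386 in replicate 1 and rank 47 in replicate 2. Both regions of this gene were thus high in both replicates.

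mom-1 encodes the Porcupine enzyme that adds a lipid to Wnt proteins, and it was the optimal member that lay far from the right-hand end of X. Its region at chrX:6296351-6296806 stood in an intron, 3467 bp from the 5′ end of the gene. The pooled signal value was 65.1, with rank 120 in replicate 1 and rank 291 in replicate 2. Its summit window is the one that held GCGCAGG 2 times.

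The other 2 optimal members were in H18N23.2, described by RefSeq as a regulatory subunit of protein phosphatase 1, and in nlp-67, a neuropeptide-like gene. The H18N23.2 region lay in a UTR, 54 bp from the 5′ end, with a pooled signal value of 63.2 and ranks of 239 in replicate 1 and 432 in replicate 2. The nlp-67 region lay in a coding exon, with a pooled signal value of 62.6 and ranks of 707 in replicate 1 and 56 in replicate 2. A second pooled region of nlp-67, at 41.6, overlapped the first and was matched to the same replicate regions. It is therefore no separate support.

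Below the optimal ones, the 5 next strongest members were spread over both kinds of rank pattern. They lay in introns of ZK470.2 (pooled signal value 58.8), of F13C5.3, a gene for a peptidase of the M13 family (58.4), of eat-17, a Rab GTPase-activating protein (58.0), and of C30G4.4, a TSC22 domain protein (57.9). The fifth lay inside both ZC8.6, a phosphatidylinositol 4-kinase gene, and lfi-1, in a UTR of at least 1 of them (57.2). C30G4.4 ranked 115 in replicate 1 and 255 in replicate 2, while ZC8.6 ranked 146 in replicate 1 and 2568 in replicate 2.

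Ordered by the worse of both ranks, the first 10 members also held ldb-1, ain-1, nhr-1 and dpyd-1. ldb-1 encodes a cofactor that binds LIM domain proteins, and its intron region ranked 159 in replicate 1 and 412 in replicate 2. ain-1 encodes a GW182-type protein of microRNA silencing, and its coding exon region ranked 372 in replicate 1 and 478 in replicate 2. The dpyd-1 gene, for an enzyme that breaks down pyrimidines, held a coding exon region at ranks 615 in replicate 1 and 610 in replicate 2. The pooled signal values of ldb-1 (52.2), ain-1 (46.9) and dpyd-1 (45.2) were below those of several members with uneven ranks.

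Some members ranked high in 1 replicate and low or not at all in the other, as a few cases chosen after their values were seen show. The F19H6.6 region ranked 14449 in replicate 1 and 97 in replicate 2. The aak-2 region, in the gene for a catalytic subunit of AMP-activated protein kinase, ranked 142 in replicate 1 and 9966 in replicate 2. The F22H10.3 region ranked 51 in replicate 1 and had no region of replicate 2. The strongest C09G1.2 region ranked 110 in replicate 2 and had none in replicate 1. Pooled signal values were 51.7 for F19H6.6, 51.6 for aak-2, 45.8 for F22H10.3 and 50.9 for C09G1.2, within the range of the ldb-1, ain-1 and dpyd-1 regions.

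The members were not spread evenly along X. In bins of 1 Mb they numbered 2 to 15 in each of the first 15 Mb, then 23, 50 and 33 in the last 3 bins, of which the last is shorter. Right of 15 Mb, an edge chosen after the data were seen, lay 106 of the 223 (47.5%, exact 95% interval 40.8% to 54.3%). That stretch of 2718942 bp is 15.3% of X and holds 13.6% of the gene bases that the rule could pick. Per Mb of such bases there were 81.7 members on the right and 14.1 on the left, a ratio of 5.78. Among the optimal members 4 of 5 lay there, and so did 9 of the 10 genes with 3 or more members.

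**Figure D2:**
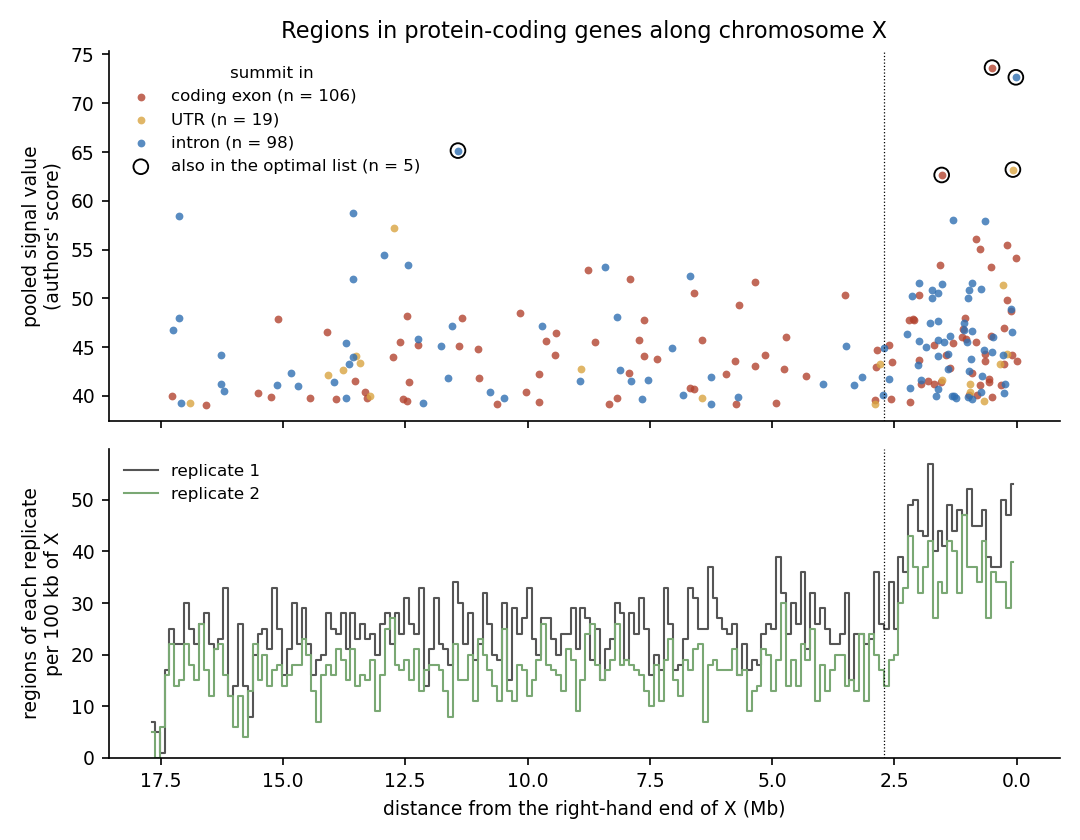
The upper panel plots the pooled signal value of the 223 members against their distance from the right-hand end of X in Mb, coloured by the feature at the summit, with rings for the 5 optimal ones. The lower panel counts all regions of each replicate's own list per 100 kb, and the dotted line stands at the edge of the last 2.72 Mb, where 106 members lay and both replicates' counts were higher.

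The density on the right was also high in the lists of each replicate, in strong and weak regions. By the same rule 621 of the 2748 regions of replicate 1 (22.6%) lay right of 15 Mb, a ratio of 1.86 per Mb of gene bases. In replicate 2 it was 471 of 1933 (24.4%) with a ratio of 2.05. For regions ranked 1000 or better the ratio was 5.79 in replicate 1 and 4.36 in replicate 2. For those ranked lower it was 1.67 in replicate 1 and 1.88 in replicate 2. The excess was thus present in each replicate and smaller among weak regions.

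It was not particular to genes. X regions outside protein-coding genes had 102 of 175 right of 15 Mb (58.3%) and a ratio of 6.61 per Mb of non-genic bases. X regions beside short RNA genes had 18 of 75 (24.0%) and a ratio of 1.52. Over all regions on X the counts per 100 kb from 15.3 Mb on were 36 to 57 in replicate 1 and 27 to 47 in replicate 2. Before 15.3 Mb they were 1 to 39 in replicate 1 and 0 to 30 in replicate 2. Medians per 100 kb from 15.3 Mb on were 45 in replicate 1 and 35 in replicate 2, against 24 in replicate 1 and 17 in replicate 2 before that point.

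Autosomes showed no such stretch by the same count. Regions inside genes reached at most 12 per 1-Mb bin on any autosome, and the share in an equally long last stretch was 7.69% to 19.4%. Gene bases in those stretches made up 10.2% to 20.3%. Per Mb of gene bases, X held 23.3 regions in all and 14.1 left of 15 Mb, while the autosomes held 7.12 to 9.69. What sets the density at the right-hand end of X was not tested.

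Members right of 15 Mb had a slightly higher pooled signal than the others, with medians of 45.1 on the right and 42.7 on the left. Their median rank was 1181.5 in replicate 1, against 2310 for the members on the left, and 1174 in replicate 2, against 1450. A region of both replicates overlapped 89.6% of those on the right and 90.6% on the left. Neighbouring members stood a median of 13108 bp apart on the right and 81534 bp on the left. Of the protein-coding genes right of 15 Mb, 75 of 333 (22.5%) held a member, against 112 of 2397 (4.67%) on the left.

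The 10 genes with 3 or more members were longer than the median X gene and lay right of 15 Mb, ZK470.2 aside. ZK1073.2, an uncharacterized gene of 20311 bp, held 5 members, all in introns and spread over 15433 bp, with pooled signal values of 40.7 to 50.6. Each of the other 9 genes held 3. Regions of both replicates overlapped 4 of the 5 members in ZK1073.2, 2 of the 3 in mbl-1 and 2 of the 3 in F43B10.1. In the remaining genes they overlapped all 3. In mbl-1, which encodes the splicing factor Muscleblind, in lgc-53, a ligand-gated ion channel gene, and in ZK470.2 the 3 members were all intronic. Pooled signal values were 40.4 to 51.0 in mbl-1, 39.8 to 50.03 in lgc-53 and 44.0 to 58.8 in ZK470.2. No gene other than H18N23.2 among these 10 held an optimal region.

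In lin-15B, a chromatin repressor of the synMuv B class, 2 members lay in coding exons and 1 in an intron, at 43.6 to 51.6. In nhr-1, a nuclear hormone receptor gene, 2 lay in coding exons and 1 in a UTR, at 44.3 to 55.5. aak-2 held 3 at 42.4 to 51.6, eat-17 held 3 at 39.97 to 58.0, and F43B10.1, an EF-hand gene of 25191 bp, held 3 at 46.8 to 48.0. In eat-17 and in aak-2, 2 of the 3 pooled regions overlapped each other and were matched to the same replicate regions. These genes therefore hold fewer separate places than regions.

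**Figure D3:**
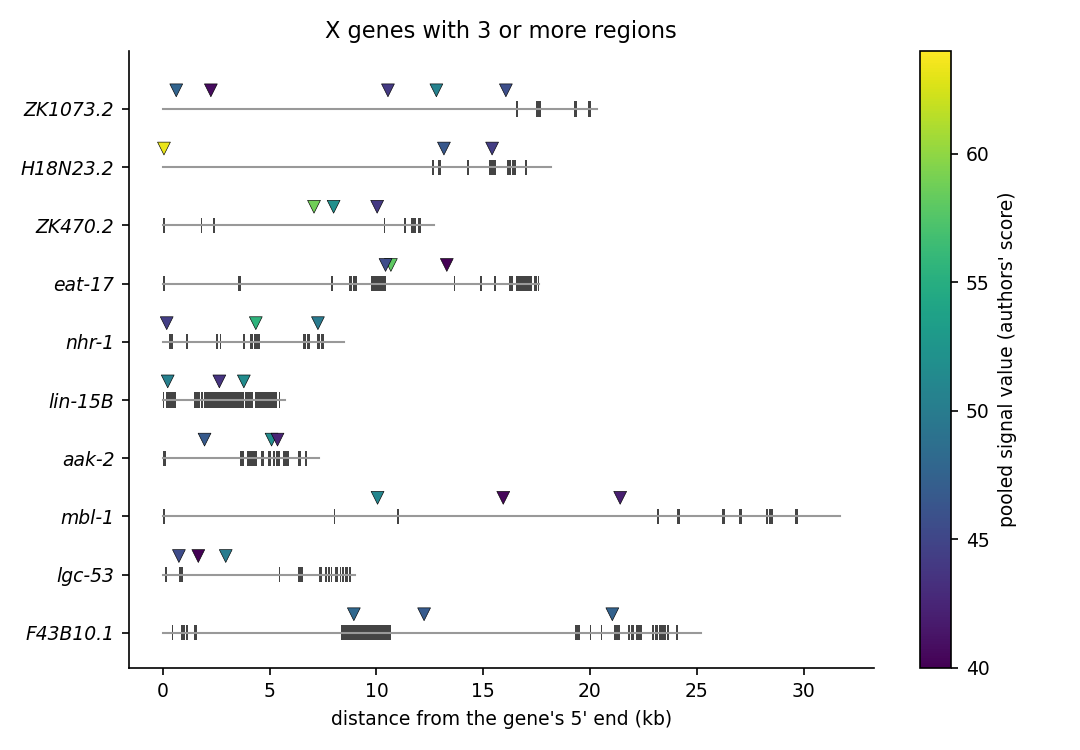
The 10 X genes with 3 or more members, drawn to scale from the 5′ end at 0 kb, with dark boxes for coding exons and grey lines for introns and UTRs. Triangles mark summits and their colour gives the pooled signal value (authors' score), with the highest at the 5′ end of H18N23.2 (63.2).

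The share of summits on coding exons was above the share of such bases in X genes. A coding exon held 106 of the 223 (47.5%, exact 95% interval 40.8% to 54.3%), while coding exons made up 36.9% of the gene bases the rule could pick. An intron held 98 (43.9%, interval 37.3% to 50.7%), against 54.9% of the bases. A UTR held 19 (8.52%), against 8.21%. Among the 424 autosomal regions inside genes the shares were 52.4% coding exon, 32.5% intron and 15.1% UTR. Autosomal gene bases were 40.5% coding exon, 52.6% intron and 6.87% UTR. Summits stood on coding exons above their share of bases on X and on autosomes alike. The UTR share lay above its bases on autosomes (exact 95% interval 11.8% to 18.9%) and near them on X (5.21% to 12.99%), and this difference between chromosomes was not tested.

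**Figure D4:**
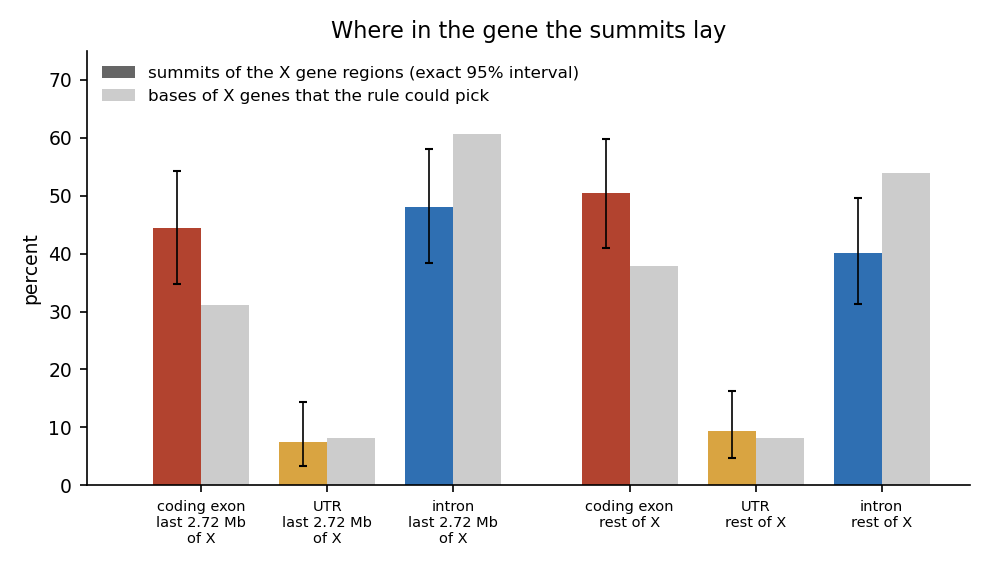
Percent of member summits in each feature (coloured bars, with exact 95% intervals) beside the percent of X gene bases of that feature that the rule could pick (grey), for the last 2.72 Mb of X (left) and the rest of X (right). In both stretches coding exons hold a larger share of summits than of bases (44.3% against 31.2%, and 50.4% against 37.8%) and introns a smaller one.

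On both sides of 15 Mb coding exons held a larger share of summits than of bases, and introns a smaller one. On the right 44.3% of summits were in coding exons, against 31.2% of the bases, and 48.1% in introns, against 60.6%. On the left 50.4% were in coding exons, against 37.8% of the bases, and 40.2% in introns, against 53.96%. UTRs held 7.55% of summits, against 8.16% of the bases, on the right and 9.40%, against 8.22%, on the left. Members in the 3 features had like signal, with medians of 44.04 in coding exons, 42.7 in UTRs and 44.4 in introns. Regions of both replicates overlapped 88.7%, 89.5% and 91.8% of them in that order.

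Measured along the whole annotated gene, the summits showed no end they kept to. Starts of single transcripts inside a gene were not used, so nearness to those was not measured. They lay a median of 2233 bp from the 5′ end of their gene, at a median of 51.0% of its length. Counts were 79 in the first part of the gene when it is cut in 3 equal parts, 67 in the middle part and 77 in the last. A promoter window, from 1000 bp upstream to 200 bp downstream of any protein-coding 5′ end, held 28 members (12.6%). The rule asks for a summit inside a gene, so the upstream part was open to members only where it lies in a gene. The share of gene bases in such windows was not counted, so this percent does not show whether members avoid promoters. Genes on the plus strand held 116 members and genes on the minus strand 107.

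Few members had another annotated gene at the summit. In 3 cases a non-coding gene lay there as well, in dlg-1, ifa-3 and npr-40. The nearest short RNA gene was a median of 27181 bp away, and 4 members lay within 1000 bp of one. The members nearest to the limit of 250 bp were in F20D1.3, 301 bp from mir-1829.2 with a pooled signal value of 40.1, and in trk-1, 350 bp from the tRNA gene sup-33 with 52.9. Just outside it, regions in F09A5.3 at 176 bp from mir-54 had 68.2 and in tbc-18 at 166 bp from a tRNA gene 40.8. At gene edges, members in mct-6 and gst-11 lay 5 bp inside with 40.4 and 42.2, and a region 2 bp outside F41B4.1 had 44.99.

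Summit sequence was richer in G and C than X genes at large. Median GC content within 50 bp of the summit was 43.6% at the members, against 35.6% over 94753 windows of the same length along X genes. This held within each feature. It was 46.5% against 41.6% in coding exons, 39.6% against 32.7% in UTRs and 40.1% against 32.7% in introns. X regions outside genes had 39.6% and autosomal regions inside genes 42.6%, so GC content near 43% was not particular to X genes. Whether the GC content of the fragments affected the signal was not tested.

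Most members lay in unique sequence. All words of 31 bases occurred once in the genome in 198 of the 223 members, against 898 of 1221 nuclear pooled regions and 355 of 424 autosomal regions inside genes. The lowest shares of such words were 52.1% in K09A9.6 and 59.2% in F31F6.3, and no member shared a 31-base word with the mitochondrial genome. Soft-masked (repeat-like) bases made up a median of 18.4% of a member, against 24.1% of 456-bp stretches along X genes. In 10 of the 223 members they exceeded 50% of the region, against 75 of 1221 nuclear pooled regions and 25 of 424 autosomal regions inside genes. All 10 lay right of 15 Mb, where stretches along X genes were masked to a median of 27.4%.

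The words searched, some of them taken from earlier results of these data, were counted on both strands within 50 bp of the summit, beside the windows along X genes. These windows were not matched to the members in GC content, with medians of 35.6% in the windows and 43.6% at the members. The part of GC content in the word shares was not tested. The dosage compensation letters GCGCAGG stood in 3 members (1.35%, exact 95% interval 0.278% to 3.88%), against 0.601% of the other nuclear pooled regions and 0.175% of the windows. These are the mom-1, T24D5.1 and F38E9.1 sequences printed above. The mom-1 region ranked 120 in replicate 1 and 291 in replicate 2, and the T24D5.1 region 4470 and 1902 in the same order. The F38E9.1 region ranked 307 in replicate 1 and had no region of replicate 2. Over the whole 456 bp, 6 members held it (2.69%), while X regions outside genes had 6.86%, autosomal regions inside genes 1.18%, all nuclear pooled regions 2.95% and stretches along X genes 0.845%. The counts are small and the word was absent from most members. GCGCCA overlaps it in mom-1 and F38E9.1.

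GCGCCA stood in 12 members (5.38%, interval 2.81% to 9.21%), against 3.71% of the other nuclear regions and 1.71% of X gene windows. GAGAGA was found in 18 (8.07%), against 9.32% of the other nuclear regions and 4.68% of the windows. CACGTG was found in 6 (2.69%), against 2.40% and 1.36% in the same order, AGTGGC in 8 (3.59%), against 4.01% and 2.64%, and CCACTC in 11 (4.93%), against 4.71% and 2.72%. TTTAAA was less frequent than in the windows, in 12 members (5.38%), against 8.52% of the other nuclear regions and 14.1% of the windows. The exact 95% intervals of the member shares of CACGTG (0.994% to 5.76%), AGTGGC (1.56% to 6.95%) and CCACTC (2.49% to 8.65%) include the window share. The interval of GAGAGA (4.85% to 12.5%) does not, nor does that of TTTAAA (2.81% to 9.21%) or the one given above for GCGCCA.

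The core word of SKN-1 sites, GTCAT, stood in 36 members (16.1%, interval 11.6% to 21.6%), against 14.03% of the other nuclear regions and 16.2% of the windows. The GATA-type word TGATAA stood in 13 (5.83%, interval 3.14% to 9.76%), against 8.12% and 9.87% in the same order. GTTCNANNC, the B box of tRNA genes in which N is any base, stood in 7 (3.14%, interval 1.27% to 6.36%). It stood in 10.8% of the other nuclear regions and 3.92% of the windows. In X regions beside short RNA genes that word stood in 49.3%. The interval of TGATAA lies just below the window share, while those of GTCAT and GTTCNANNC include it. A match is a description of letters and is not a binding site.

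Gene lists were made from gene symbols, so genes of a like kind under other symbols are not in them. Counts are given as genes that held a member of all protein-coding genes of the list on X, beside 6.85% of all X protein-coding genes. Nuclear hormone receptors, ligand-regulated transcription factors, had 7 of 23 (30.4%), of which 3 of 5 lay right of 15 Mb and 4 of 18 left of it. The strongest were nhr-1 (pooled signal value 55.5), nhr-28 (46.2), nhr-48 (45.6) and nhr-3 (41.9). These genes had a median length of 4321 bp, against 2507.5 bp for X genes, and the part of gene length in this share was not tested. The summit of nhr-27 lay in gei-3 as well, so it cannot be assigned to one of them. That region was overlapped by a region of 1 replicate only.

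Ion channels and transmitter receptors had 7 of 69 (10.1%). They were lgc-53, the potassium channel gene twk-22, the gap junction genes inx-5, inx-1 and unc-7, the acetylcholine receptor gene acr-2, and mec-2. The unc-7 member had no region of replicate 2. RefSeq describes the mec-2 product as a Band 7 domain protein, and the gene is in the list by its symbol. The proton-gated channel gene pbo-6 (pooled signal value 51.4) and tmc-2 (53.3), a gene of the TMC domain family, held members and are not in the list. Muscle structure genes had 3 of 10, namely unc-27 (troponin I, pooled signal value 41.5), mlc-1 (myosin light chain, 40.3) and tnt-3 (troponin T, 39.4). Wnt pathway genes had 1 of 4, mom-1. Neuropeptide and insulin genes had 2 of 39, nlp-67 and flp-2 (47.8), at a summit that also lies in W07E11.1. The genes nssp-91 (40.02) and EGAP5.1 (39.7), which RefSeq describes as neuropeptide-like as well, held members and are not in the list. Collagen and cuticle genes had 1 of 30, col-41 (43.5), at a summit shared with ucr-2.2. The cuticlin-like gene cutl-3 (44.9) held a member and is not in the list.

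No member lay in the 21 homeobox genes, the 7 basement membrane genes, the 5 vitellogenin genes or the 2 genes of the dosage compensation complex on X. With lists this short, the share of all X genes would also leave few or no members in most of them.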

How the data were processed

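ChIP-seq of 1 group with 2 biological replicates was analysed from deposited region lists in narrowPeak layout, build ce11. The authors made, per the deposited file notes, a lenient list of peaks and background for each replicate and for both together, against 1 control alignment, and an optimal list by IDR. Each region's signal value is the authors' deposited score on an unstated scale, used here to describe and rank regions within a list. Aligner and peak caller were not given in the sources used here, and the depth behind a region is unknown.

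Summits were placed in genes of the WBcel235 RefSeq annotation in the order coding exon, UTR, intron. A member counted as found in a replicate when their regions overlapped by at least 1 bp, and as optimal with the same start and end. The highest-signal overlapping replicate region gave the replicate's value and rank. Gene bases were counted once and by the same exclusion of 250 bp around short RNA genes. Intervals are exact Clopper-Pearson at 95% and cover counting error only, since regions are not replicates. No test across conditions was possible. Positions are 1-based, and the ce10 lists were not used.

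Named genes are those of every optimal member, the 10 highest pooled signals, the 10 best by the worse of both replicate ranks, every gene with 3 or more members and up to 4 per gene list, and genes named outside this rule were chosen after their values were seen. The members, gene lists and words were chosen with earlier results of these data known. Overlap and placement were tested on simulated data. Alternatives were other distances, overlaps, ranks, windows and the stronger part of the pooled list. Python 3.11.15, pandas 2.3.3, numpy 2.4.6, SciPy 1.17.1 and matplotlib 3.10.9 were used.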

Additional observations from a re-analysis of the deposited data

How the results depend on the processing

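Of 35 alternatives, 25 gave values within the interval of the value reported or within 1.5 times of a count. Some could not have left that range. With 1 replicate left out, the count of members found in both could only lie between 201 and 223. The number of members was 109 among the stronger 621 pooled regions, in place of 223. Members ranked high in both replicates numbered 8 at rank 500 and 45 at rank 2000, in place of 25 at rank 1000. With a single replicate used, 89 members ranked 1000 or better in replicate 1 and 96 in replicate 2. The share right of 15 Mb was 22.6% among replicate 1's own regions, 24.4% among those of replicate 2 and 56.9% among the stronger 621 pooled regions, in place of 47.5%. Members left of 15 Mb alone had a median signal value of 42.7, and windows of 25 bp gave a median GC content of 45.1%. The alternatives on the right-hand stretch were chosen after seeing the data. No paired analysis was possible because the study has 1 group. With 2 replicates, no depth and no library without the tag, a region in 1 replicate only cannot be told apart from noise.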
